A study of Mus musculus with 6 samples.

Results

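The genes described here encode the proteasome, the barrel-shaped protease that degrades ubiquitin-tagged proteins, together with its regulators and the interferon-inducible immunoproteasome subunits. Members were all array probes, other than control spots, whose gene name begins with Psma to Psmf followed by a number. The rule found 57 probes under 45 names among the 55681 probes of the array. Of these, 1 probe names Psmc3ip, an interacting protein and not a proteasome subunit, and it was set apart (difference -0.05 on the log2 scale), which leaves 56 probes of 44 proteasome genes. Tests could be made for 54 of those probes, covering 42 genes, and every tested probe was well above background on all 6 arrays. The probes of Psma8 and Psmb11 were not bright enough to test.

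RNA was measured in the aortic arch of 6 mice, 1 mouse per array, on 1-colour Agilent arrays. All recipients were female C57BL/6 mice with intact Mir21 (Mir21+/+) that had received 2 X-ray doses of 5 Gy within 4 h and then bone marrow by tail vein 1 day later. The group BM Mir21 WT (3 mice) carried marrow of Mir21+/+ donors and the group BM Mir21 KO (3 mice) marrow of Mir21–/– donors. High-fat feeding started 3 weeks after irradiation and ran for 12 weeks in both groups, and neither the age of the mice nor the hour of tissue collection is given in the sources used here. Only marrow-derived cells lack Mir21 in this model: the vessel wall is the recipient's own, and any leukocytes that survive irradiation also keep the gene. The comparison asks which arch transcripts depend on Mir21 in marrow-derived cells. The array has 0 probes named Mir21 or Mir21a, and the absence of the microRNA was therefore not checked here.

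As background, the 20S core particle stacks rings of alpha and beta subunits, and the beta subunits Psmb5, Psmb6 and Psmb7 carry the cutting sites. The 19S regulatory particle caps the core, recognises ubiquitin, unfolds the substrate with a ring of ATPases and feeds it inward. Under interferon, and constitutively in many leukocytes, Psmb8, Psmb9 and Psmb10 replace the 3 cutting subunits in newly built cores, which changes the peptides made for presentation on MHC class I. An arch holding leukocytes, smooth muscle, endothelium and surrounding fat therefore mixes both kinds of core.

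Values are log2 signals relative to each array's 75th percentile, and differences are KO minus WT from limma with its standard error, with p-values adjusted by Benjamini-Hochberg over all 38341 tested probes. The arrays had 66.4% to 74.4% of spots well above background, the lowest share being that of KO replicate 3. That array was also the dimmest before scaling, with a median signal of 36.6, against 53.6 to 62.7 on the others. In the alternative fit with array weights, KO replicate 1 had the lowest weight (0.345) and WT replicate 3 the highest (2.42). All arrays shared 1 slide, with WT in row 1 and KO in row 2, and the effects of row and marrow group cannot be told apart. Smooth muscle markers, which define the aortic media, were present on every array: Acta2 read between 9.32 and 10.05. Myh11, the smooth muscle myosin, read 5.86, 6.41 and 5.94 in WT and 6.48, 6.87 and 7.19 in KO, a difference of 0.78 ± 0.24 (SE) that did not pass (limma, unadjusted p = 0.0137, adjusted p = 0.486). Myh11 had the largest difference of the 8 smooth muscle markers, whose median was 0.28 and whose lowest was -0.02 (Lmod1). In bulk tissue, fewer cells of a type and less RNA per cell cannot be told apart.

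None of the 54 tested proteasome probes passed the adjusted threshold of 0.05 in limma (0 calls), against 1 of the 38341 probes tested on the array (0.00261%). At an unadjusted p below 0.05, 1 proteasome probe was called (1.85%), where 8.71% of all tested probes were. Taking the brightest tested probe of each gene, 19 genes were higher and 23 lower with knockout marrow. The median difference was -0.01, beside 0.02 over all tested probes. The difference lay within 0.2 of zero in 37 of the 42 genes (88.1%), against 53.05% of all tested probes. The 95% intervals, 1 gene at a time, stayed within a 2-fold change in all 42 genes and within a 1.5-fold change in 33. Proteasome genes are bright on this array (median level 3.47, against -1.31 for all tested probes).

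**Figure D1:**
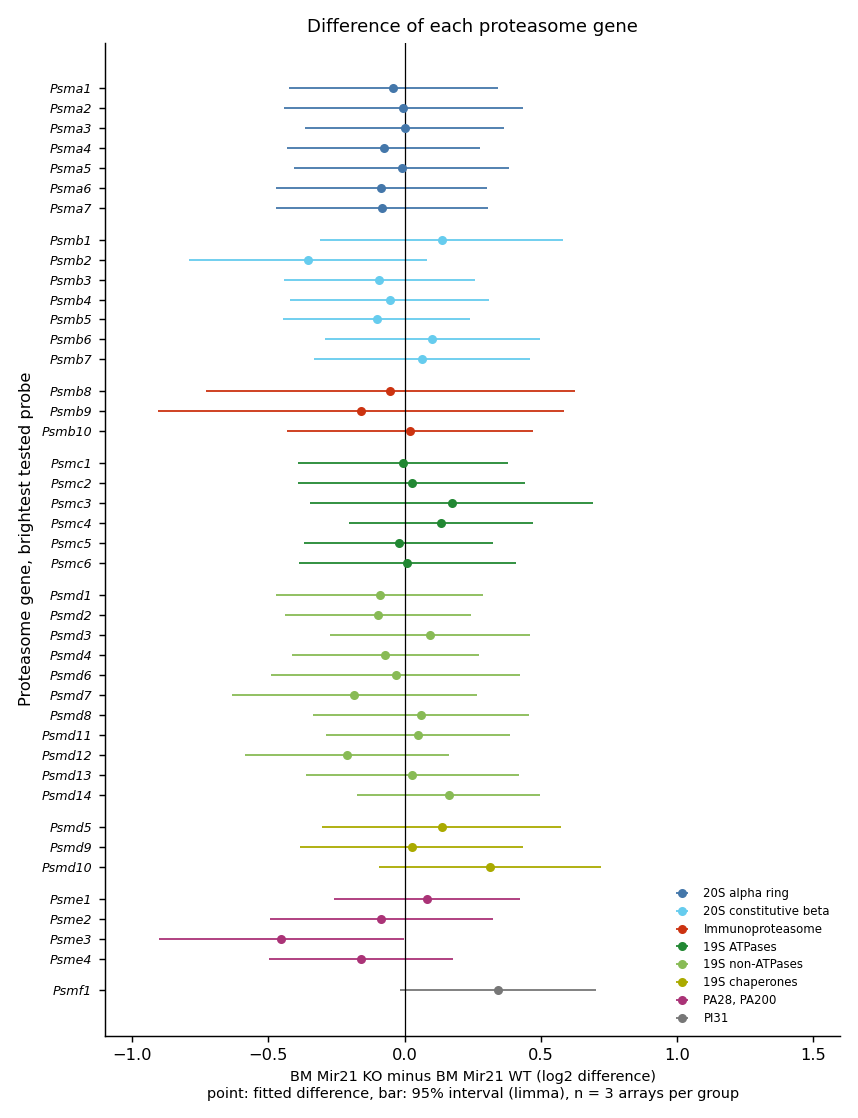
KO minus WT difference on the log2 scale for the brightest tested probe of each of the 42 tested proteasome genes, grouped by role, with 95% intervals from limma (n = 3 arrays per group). The points cluster around zero, and the interval of Psme3 alone stops short of it, before any adjustment for the number of probes tested.

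Among the immunoproteasome subunits, Psmb8 and Psmb9 were the most uneven of all members from mouse to mouse, while the group means of all 3 lay close together. Psmb8 (also LMP7), which takes the place of Psmb5, read 0.96, 0.67 and 0.68 in the WT arches and 1.28, 0.74 and 0.13 in the KO arches. The KO arches thus held both the highest and the lowest value, and the groups overlapped. The difference was -0.05 ± 0.29 (SE, limma, adjusted p = 0.969), a fold of 0.964 with a 95% interval from 0.603 to 1.54.

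The probe for Psmb8 lies at chr17:34337771-34337830 on mm9. It is shown with the second probe of Psmb5 because the members of the exchanged pair are related in sequence. Aligned without gaps over 50 bases, 31 are identical (62%), with no identical run longer than 8, and capitals mark the identical bases.
Psmb8: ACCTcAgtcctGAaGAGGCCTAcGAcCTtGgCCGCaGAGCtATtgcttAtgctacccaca
Psmb5: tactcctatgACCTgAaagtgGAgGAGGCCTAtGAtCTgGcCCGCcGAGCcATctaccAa

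Psmb9 (LMP2), the replacement of Psmb6, read 0.59, 0.74 and 1.24 in the WT arches and 1.37, 0.42 and 0.30 in the KO arches. Again KO replicate 1 was the highest of the 6 and KO replicate 3 the lowest. The difference was -0.16 ± 0.32 (SE, limma, adjusted p = 0.909). Its probe lies at chr17:34319174-34319233 on mm9, on the minus strand.
Psmb9: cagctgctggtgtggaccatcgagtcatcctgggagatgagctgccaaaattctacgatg
A second Psmb9 probe, designed on another transcript, was dim, at -3.87, -4.24 and -4.45 in WT and -3.90, -4.20 and -4.06 in KO. It differed by 0.13 ± 0.20 (SE, limma, adjusted p = 0.865), opposite in sign to the bright probe.

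Psmb10 (MECL-1), the replacement of Psmb7, moved over a narrower range, from 3.70, 3.98 and 3.93 in WT to 4.21, 3.69 and 3.76 in KO. The difference was 0.02 ± 0.19 (SE, limma, adjusted p = 0.984), and -0.029 with the normexp background correction. KO replicate 1 was once more the highest array, so all 3 immunoproteasome genes peaked in the same mouse.

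The subunits that are replaced stayed flatter. Psmb5, the chymotrypsin-like subunit, read 6.38, 6.25 and 6.44 in WT and 6.30, 6.20 and 6.27 in KO, a difference of -0.10 ± 0.15 (SE, limma, adjusted p = 0.862). Psmb6, the caspase-like subunit, read 5.97, 5.94 and 5.97 in WT and 5.85, 6.04 and 6.30 in KO, a difference of 0.10 ± 0.17 (adjusted p = 0.884). Psmb7, the trypsin-like subunit, read 2.37, 2.28 and 2.58 in WT and 2.59, 2.55 and 2.27 in KO, a difference of 0.06 ± 0.17 (adjusted p = 0.935). All 3 genes overlapped between groups.

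Within each array the replacement was set against the subunit it replaces, after centring each gene on its 6-array mean. Psmb8 minus Psmb5 ran 0.14, -0.02 and -0.19 in WT and 0.54, 0.11 and -0.58 in KO. Psmb9 minus Psmb6 ran -0.15, 0.03 and 0.50 in WT and 0.76, -0.38 and -0.77 in KO. Psmb10 minus Psmb7 ran -0.11, 0.26 and -0.08 in WT and 0.19, -0.30 and 0.05 in KO. The groups overlapped for each pair, and for the first 2 the KO mice spread on both sides of the WT mice.

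**Figure D2:**
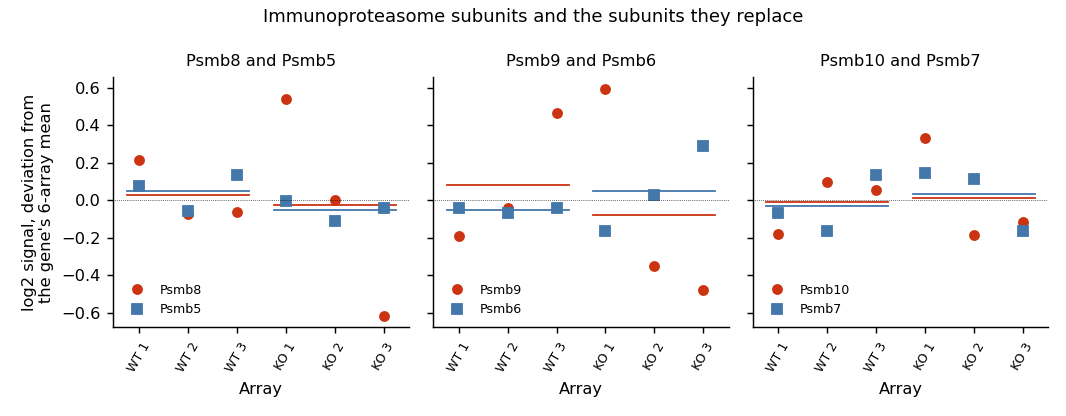
Deviation of each gene from its 6-array mean (log2), by array, for the 3 immunoproteasome subunits (circles) and the constitutive subunits they replace (squares). Horizontal lines are group means of 3 arrays. Psmb8, Psmb9 and Psmb10 are highest on KO 1, and Psmb8 and Psmb9 lowest on KO 3.

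Averaged over the 3 immunoproteasome genes, the deviations were -0.05, 0.00 and 0.15 in WT and 0.49, -0.18 and -0.40 in KO. The SD between mice was 0.107 among WT and 0.465 among KO arches. Over the 37 standard genes (all tested genes except Psmb8, Psmb9, Psmb10 and the interferon-inducible Psme1 and Psme2) the same averages ran from -0.03 to 0.05 in WT and from -0.12 to 0.10 in KO. Their lowest array was KO replicate 1 and their highest KO replicate 3, the reverse of the immunoproteasome order. Smooth muscle markers (8 of 8 tested) averaged -0.16, -0.06 and -0.26 in WT and -0.18, 0.24 and 0.43 in KO, in the same order over the KO mice as the standard genes, and their part in the standard genes' values was not tested. Without KO replicate 1 the median immunoproteasome difference was -0.34, and without KO replicate 3 it was 0.08. With KO replicates 2 and 3 both left out it was 0.51, which sets KO replicate 1 alone against the 3 WT mice.

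The within-group SD, pooled over both groups, was largest for Psmb9 (0.481) and Psmb8 (0.425) among the 42 genes. Psmc3 followed (0.290), and the other 39 lay below the median of all tested probes, which was 0.252. The SD was larger among KO than among WT arches in 28 of the 42 genes, against 68.5% of all tested probes.

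**Figure D3:**
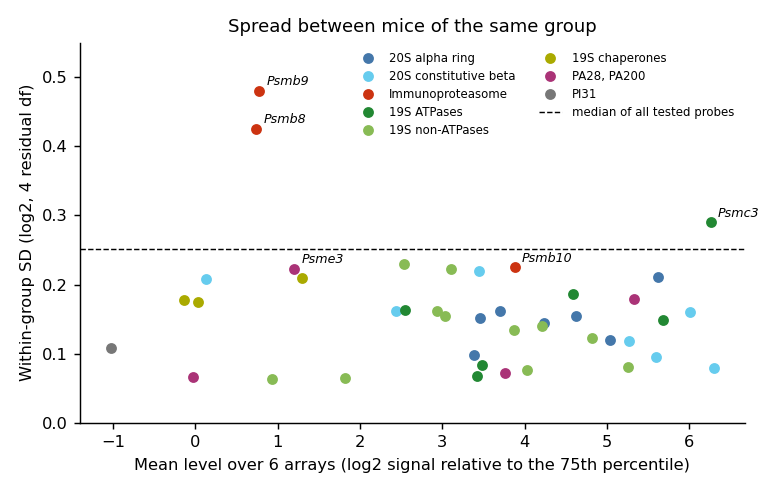
Pooled within-group SD (log2, 4 residual degrees of freedom) against mean level over the 6 arrays for the 42 tested proteasome genes, coloured by role. The dashed line is the median of all tested probes (0.252). Psmb9 and Psmb8 lie far above it, and 39 genes lie below it.

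The immunoproteasome averages were set beside 13 cell type marker lists. Each marker gene was centred on its 6-array mean and the list averaged per array. White adipocyte markers (8 of 8 tested) averaged between 0.22 and 1.11 in the WT arches, 1.20 in KO replicate 1, -1.12 in KO replicate 2 and -2.24 in KO replicate 3. Brown adipocyte markers (7 of 7) ran the same way, with 1.36, -1.35 and -2.50 in the KO arches. Endothelial markers (7 of 7) averaged 0.10, -0.06 and -0.50 in the KO arches, against 0.11 to 0.18 in WT, and skeletal muscle markers (6 of 6) 0.44, -0.22 and -0.41, against -1.45 to 1.72 in WT. The KO mice thus stood in the order of the immunoproteasome average on these 4 of the 13 lists, and the WT mice on none of them. Few orders are possible for 3 mice, so some lists would share an order without any relation. Single genes varied: Lep (-1.32, -0.83 and -0.57 in KO) and Vwf (3.57, 4.86 and 5.01) ran in the reverse order over the KO mice. Kdr, Acta1, Ckm, Tnni2 and Mylpf stood in other orders, and the remaining genes of the 4 lists followed the immunoproteasome order. These are the orders of the brightest probes, and dimmer ones could differ. The dimmer Kdr probe followed the immunoproteasome order (2.38, -0.37 and -0.70 in KO). Those of Ppargc1a (-1.96, -5.45 and -5.02) and Tnnt3 (-0.67, -1.35 and -1.29) did not.

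T cell markers (7 of 8 tested, Trac not) averaged between 0.01 and 0.16 in WT and 0.36, -0.59 and -0.10 in KO. B cell markers (6 of 6) averaged between -0.23 and 0.25 in WT and 0.44, -0.64 and 0.35 in KO. Both were highest in KO replicate 1 and lowest in KO replicate 2. In the B cell list, Cd79a is read from a probe placed on chromosome 12 (difference 0.09). Its dimmer probe, on chromosome 7, gave 0.41. KO replicate 2 was also the lowest array for Psmb10, though only just (3.695, against 3.698 in WT replicate 1). For Psmb8 and Psmb9 the lowest array was KO replicate 3. Leukocyte markers (8 of 8) averaged between -0.28 and -0.09 in WT and 0.18, 0.71 and -0.33 in KO. Macrophage markers (8 of 8) averaged between -0.47 and 0.14 in WT and 0.05, 0.89 and -0.52 in KO. Both of these lists peaked in KO replicate 2. Immature thymocyte markers (8 of 8) averaged 0.36, -0.91 and -0.29 in KO, against 0.25 to 0.30 in WT. Among them, Rag1, Rag2 and Ptcra were each well above background on only 1 of the 3 KO arrays. Dendritic cell markers (5 of 6 tested, Xcr1 not) averaged 0.29, 0.43 and -0.01 in KO, all above the WT averages of -0.33 to -0.12. Fibroblast markers (6 of 6) averaged 0.01, 0.33 and 0.00 in KO, against -0.42 to 0.08 in WT. Cardiac muscle markers (7 of 7) averaged 1.69, -1.20 and 1.10 in KO, against -0.83 to -0.04 in WT. No marker on any of the 13 lists passed the adjusted test in limma (0 calls). At an unadjusted p below 0.05, taking the brightest probe of each gene, 2 white adipocyte, 1 brown adipocyte and 2 thymocyte markers were lower. Higher at that threshold were 2 leukocyte markers and 1 marker each of macrophages, dendritic cells, smooth muscle and cardiac muscle. Of all tested probes, 8.71% were called at that threshold. The part of any of these cell types in the immunoproteasome values was not tested.

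**Figure D4:**
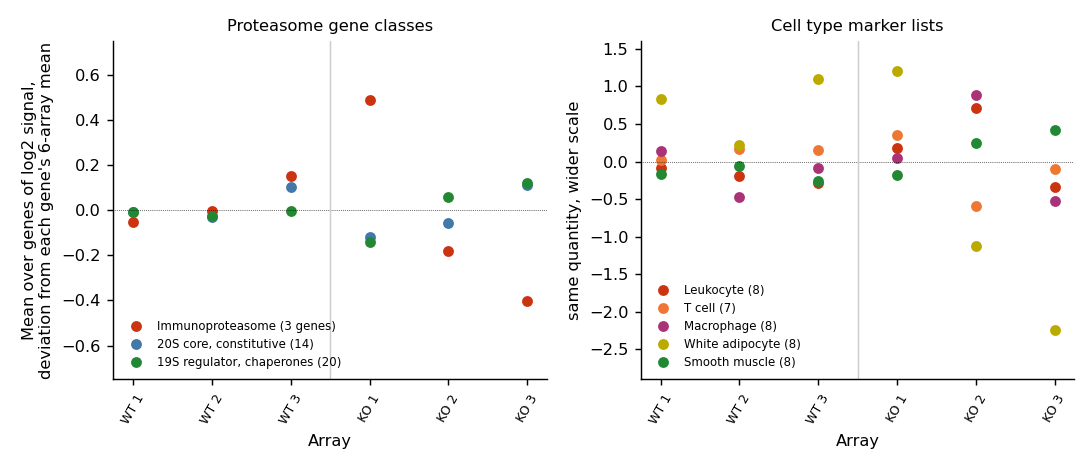
Left, mean deviation from the 6-array mean (log2) per array for the immunoproteasome genes, the constitutive core and the 19S regulator with its chaperones. Right, the same quantity on a wider scale for 5 cell type marker lists, with the number of tested genes in brackets. The immunoproteasome average is highest on KO 1 and lowest on KO 3, as the white adipocyte average is, while both other classes are lowest on KO 1.

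The remaining core genes gave small differences. The alpha ring (7 genes), which gates the entry, had 1 gene higher and 6 lower, all between -0.08 and 0.00, with a median of -0.04. Psma6 (-0.08), Psma7 (-0.08) and Psma4 (-0.08) had its smallest p-values, and none passed. The constitutive beta ring (7 genes) had 3 higher and 4 lower, with a median of -0.05. Its largest difference was that of Psmb2, a structural subunit without a cutting site, which read 0.32, 0.02 and 0.59 in WT and -0.02, 0.00 and -0.11 in KO. Every KO arch lay below every WT arch, the nearest by 0.014, and the difference of -0.35 ± 0.19 (SE) did not pass (limma, adjusted p = 0.634). Psmb1 (0.14) and Psmb3 (-0.09) did not pass either.

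The germline and thymic core subunits were at background. Psma8, an alpha subunit of the testis, lay between -7.03 and -6.48 on the 6 arrays, and Psmb11, the beta subunit of thymic cortical epithelium, between -7.20 and -5.41. Neither probe was well above background on any array, and no difference is given.

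In the 19S regulator, the 6 ATPases had 4 higher and 2 lower, with a median of 0.02, and the 11 non-ATPase subunits 5 higher and 6 lower, with a median of -0.03. Among the ATPases the smallest p-values were those of Psmc4 (0.13), Psmc3 (0.17) and Psmc5 (-0.02), none past the test. The dimmer Psmc3 probe gave -0.01. Psmd14, the deubiquitinase that removes ubiquitin chains at the entrance, read 0.85, 0.81 and 0.90 in WT and 0.93, 1.05 and 1.07 in KO. The groups did not overlap, and the difference of 0.16 ± 0.14 (SE) did not pass (limma, adjusted p = 0.769). The lid subunits Psmd12 (-0.21, adjusted p = 0.734) and Psmd7 (-0.18, adjusted p = 0.806) did not pass either. For Psmd7, 1 mouse carried the difference: KO replicate 1 read 2.65, and the other 5 arrays lay between 3.17 and 3.23.

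The 3 dedicated assembly chaperones of the 19S base that carry Psmd names were all higher in the mean, with a median of 0.14, and none passed. Psmd10 (gankyrin) read -0.17, -0.10 and -0.11 in WT and -0.05, 0.18 and 0.44 in KO, groups that did not overlap. Its difference was 0.31 ± 0.17 (SE, limma, adjusted p = 0.649), but its second probe gave -0.02. Psmd5 gave 0.14. Psmd9 gave 0.03 at its brighter probe and -0.24 at its dimmer one, where the KO arches (-1.01, -0.85 and -0.83) all lay below the WT arches (-0.52, -0.78 and -0.65).

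Among the activators, Psme3 (PA28 gamma), a nuclear cap that promotes degradation without ubiquitin, had the smallest p of all members. It read 1.44, 1.17 and 1.68 in the WT arches and 1.15, 1.01 and 0.78 in the KO arches, so that all KO values lay below all WT values, the nearest by 0.022. The difference was -0.45 ± 0.19 (SE, n = 3 per group), a fold of 0.731, with an unadjusted p of 0.0491 that did not pass (limma, adjusted p = 0.573). Its probe lies at chr11:101184289-101184348 on mm9.

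The interferon-inducible pair Psme1 and Psme2 (PA28 alpha and beta), which form the cap of immunoproteasomes, did not share the spread of Psmb8 and Psmb9. Psme1 read 3.62, 3.82 and 3.73 in WT and 3.83, 3.79 and 3.81 in KO, with a difference of 0.08 ± 0.15 (SE, limma, adjusted p = 0.893). Psme2 read 5.44, 5.15 and 5.52 in WT and 5.36, 5.10 and 5.39 in KO, with a difference of -0.09 ± 0.18 (adjusted p = 0.911). Its other probes gave 0.09 and -0.13. Psme4 (PA200), a single-chain activator of the nucleus, read 0.05, -0.04 and 0.15 in WT and -0.10, -0.11 and -0.11 in KO. That difference of -0.16 ± 0.14 (SE, limma, adjusted p = 0.773) came from groups that did not overlap, while its second probe gave 0.00.

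Psmf1 (PI31), named for inhibiting the core in the test tube and an adaptor for proteasome transport, ran the other way. It read -1.29, -1.02 and -1.28 in WT and -0.83, -0.86 and -0.88 in KO, so every KO value was above every WT value. The difference was 0.34 ± 0.15 (SE, n = 3 per group), a fold of 1.27, with a 95% interval from 0.989 to 1.63 (limma, adjusted p = 0.585). The 3 KO arches differed from each other by at most 0.05.

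Over the 54 tested probes, the groups did not overlap with KO higher in 3 (5.56%; Psmd10, Psmd14 and Psmf1), against 7.58% of all tested probes. They did not overlap with KO lower in 4 (7.41%; Psmb2, Psme3, the brighter Psme4 probe and the dimmer Psmd9 probe), against 6.14%. Both shares are near those of the whole array.

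Probes for the same gene gave a measure of how far such differences can be read. Of the 42 genes, 11 had more than 1 tested probe. Their probes differed in level by 0.32 to 6.41 and in the KO minus WT difference by 0.04 to 0.33. The sign differed between probes in 7 of the 11 genes, none of them by more than 0.5. By the coordinates in the files, 14 of the 57 probes cover a genomic span longer than the 60 bases of a probe, as a probe designed across a splice junction does. For 1 dim Psme2 probe the span is 219297 bases. The level gap of 6.41 rests on that probe, and what it detects was not tested. The next largest gap was 4.90, for Psmb9. Exon, intron and UTR positions were not analysed here.

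Genes around the proteasome were read from 4 lists. Of 11 assembly factors and partners outside the Psma to Psmf names, none passed the adjusted test in limma (0 calls). At an unadjusted p below 0.05, where 8.71% of all tested probes were called, 1 of them was lower. That gene was Psmg4, a chaperone of the alpha ring, which read 0.98, 0.96 and 0.90 in WT and 0.38, 0.14 and 0.60 in KO. The difference was -0.57 ± 0.17 (SE, limma, adjusted p = 0.468), and the groups did not overlap. Ecpas (0.16) and Ube3c (-0.10), and Pomp, the maturation factor of new cores (-0.02), did not pass. The dimmer Pomp probe gave 0.22.

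The 6 genes for transcriptional control gave 0 calls adjusted and 0 unadjusted. Nfe2l1, the activator that raises proteasome genes when degradation is blocked, differed by 0.05 ± 0.18 (SE, limma, adjusted p = 0.951). Ddi2, the protease that releases it, gave 0.31, Ngly1, which removes its sugars, -0.16, and Nfe2l2, the oxidative stress activator, -0.31. The dimmer Ddi2 probe gave -0.05. The 13 genes of ubiquitin and delivery also gave 0 calls in both readings at the brightest probe of each gene. Uba6 gave 0.04 there and 0.55 at a dimmer probe (limma, unadjusted p = 0.0314, adjusted p = 0.543). Ufd1, a cofactor that extracts ubiquitinated proteins, differed by -0.32. Rad23b, a shuttle that brings such proteins to the proteasome, gave 0.22 at its brighter probe and -0.35 at its dimmer one.

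Of 20 genes for peptide loading on MHC class I and its interferon control, 19 were tested (Ifng was not), with 0 calls adjusted or unadjusted in limma. Tap1, a chain of the peptide transporter, read -3.09, -3.04 and -2.91 in WT and -2.19, -2.72 and -3.08 in KO, a difference of 0.35 ± 0.24 (SE, adjusted p = 0.704). Its highest array was KO replicate 1, as for the immunoproteasome genes. Tap2, its partner chain, read 2.80, 2.78 and 2.85 in WT and 3.03, 2.68 and 2.37 in KO (-0.12, adjusted p = 0.886), in the same order over the KO mice. B2m, the light chain of class I, gave 0.18, and Irf1, an interferon-induced activator, -0.36. Over the whole list the array averages ran from -0.11 to 0.09 in WT and were 0.08, 0.11 and -0.22 in KO, so the list did not peak in KO replicate 1.

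Psmb9 and Tap1 lie head to head on chromosome 17 and share the interval between their starts, with Psmb8 and Tap2 as neighbours. That interval, chr17:34187331-34187555 (GRCm38.p6, minus strand, RefSeq), is shown because both genes were highest in KO replicate 1. Its 225 bases are 61.3% G and C. Capitals mark the matches to TGANNNNGC, the core of the antioxidant response element, and to CCAAT, which reads ATTGG on this strand.
Psmb9 to Tap1: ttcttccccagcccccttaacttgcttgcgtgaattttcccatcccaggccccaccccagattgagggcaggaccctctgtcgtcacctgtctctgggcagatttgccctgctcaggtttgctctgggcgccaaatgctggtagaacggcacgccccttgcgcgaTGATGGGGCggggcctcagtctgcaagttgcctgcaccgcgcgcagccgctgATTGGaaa

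Promoter windows (250 bases before to 50 after the start, RefSeq, GRCm38.p6) were found for 37 of the 44 proteasome genes and were searched on both strands. TGANNNNGC was in 21 (56.8%), against 45.0% of the 27025 genes of the table. CCAAT was in 14 (37.8%), against 41.1%. GAAANNGAA, an interferon response core, was in 6 (16.2%), against 9.76%, and in none of the 3 immunoproteasome windows. TTCNNNGAA, the gamma-activated site, was in 2 (5.41%; Psmb8 and Psmd2), against 9.55%. These are matches of letters in a fixed window and describe no binding.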

How the data were processed

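Total RNA of 6 aortic arches (3 mice per group per the series design, integrity number above 7.5 per the labels' protocols) was labelled with Cy3. The deposited files hold intensity on a linear scale, read with Agilent Feature Extraction 10.7.3.1 and background-subtracted per the file headers. The authors' deposited series table holds these intensity values to within 0.497% and was an alternative. Here log2 processed signal minus each array's 75th percentile over spots that are not controls was used, after dropping outlier spots and averaging replicate spots. Testing required a probe to lie well above background on all 3 arrays of a group (38341 of 55681). Two-sided limma tests (version 3.58.1, R 4.3.3; lmFit, eBayes) were adjusted by Benjamini-Hochberg at 0.05, after the fit was tested on simulated data. The brightest tested probe stands for a gene, and coordinates are on mm9. Arrays give no counting depth: the number of arrays limits the precision.

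The members and lists were chosen with earlier results of these data known. Named genes are the immunoproteasome subunits, those they replace, Psmb11, Psma8, the activators and Psmf1, the 3 smallest unadjusted p in each other class and context list, and Tap1, Tap2, B2m, Pomp and Nfe2l1, except that 2 context genes under this rule are not reported here. Psmd2, Psmc3ip, Uba6 and all tested marker genes named singly, such as Acta2 and Myh11, were named after their values were seen. Alternatives covered background correction, normalization, filters, the series table, variance model, array weights, a replicate block, left-out arrays and the mean over probes. Same-numbered arrays deviated together with correlations of 0.12, 0.05 and -0.28, so the numbers were not taken as pairs.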

Additional observations from a re-analysis of the deposited data

How the results depend on the processing

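The count of proteasome probes past the adjusted threshold was 0 under all alternatives run. Over all tested probes it was 1 in the main setting, 4 with normexp, 2 with array weights, median centring, a trended and robust variance and without KO replicates 2 and 3 together, 0 with the stricter filter, and 1 to 2 leaving out an array in turn. The replicate block gave 1 call in all, 0 among members and 7.93% of probes at an unadjusted p below 0.05. The lowest adjusted p of a member was 0.188, with array weights, where 4 members (Psmb2, Psmd10, Psme3 and Psmf1) had an unadjusted p below 0.05, beside 18.7% of all tested probes. Psme3 lost its unadjusted call with median centring, quantile normalization, no filter, the series table, the replicate block, without WT replicate 1 or 3, without KO replicate 2 or 3, and without both of these. The median of the standard genes ran from -0.10 (without KO replicate 3) to 0.042 leaving out an array in turn. Without KO replicates 2 and 3, which leaves KO replicate 1 alone in its group, it was -0.15. The median of the immunoproteasome genes ran from -0.34 (without KO replicate 1) to 0.08 (without KO replicate 3), and was 0.51 without KO replicates 2 and 3. No named gene passed the adjusted threshold in any of 680 gene and alternative combinations.

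Signs of small differences turned in 37 combinations, over 17 genes, and the cause was not tested. With normexp Psmb10 was -0.029 and Ngly1 0.058. With quantile normalization Psmc5 was 0.024 and Pomp 0.024. With array weights Psmb10 was -0.074, Psmc5 0.014 and Pomp 0.00071. Without KO replicates 2 and 3 Psmb8 was 0.51, Psmb9 0.52, Psmb6 -0.11, Psmb1 -0.18, Psmc3 -0.092, Psmd5 -0.19, Psmd9 -0.14 and Tap2 0.22. With the mean over probes Psmd9 was -0.11, Pomp 0.098 and Rad23b -0.067. Leaving out an array in turn, these genes ranged over zero: Psmb8 from -0.34 (without KO 1) to 0.24 (without KO 3), Psmb10 from -0.14 (without KO 1) to 0.12 (without KO 2), Psmd9 from -0.064 (without WT 1) to 0.14 (without WT 3), Pomp from -0.082 (without KO 3) to 0.055 (without KO 1), Psmb7 from -0.0021 (without WT 2) to 0.16 (without KO 3), Psmb9 from -0.50 (without KO 1) to 0.042 (without KO 3), Nfe2l1 from -0.064 (without KO 1) to 0.18 (without KO 2), Psma7 from -0.20 (without KO 3) to 0.012 (without KO 1), Psmc5 from -0.067 (without KO 2) to 0.042 (without KO 1), Psme2 from -0.20 (without WT 2) to 0.0073 (without KO 2), Psmb6 from -0.017 (without KO 3) to 0.21 (without KO 1) and Tap2 from -0.28 (without KO 1) to 0.045 (without KO 3).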
